A study of Homo sapiens with 24 samples.

Results

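The 10 genes described here carry microRNAs from primary transcript to silencing. They are DROSHA and DGCR8, XPO5, DICER1 with its partners TARBP2 and PRKRA, AGO1 and AGO2, and TNRC6A and TNRC6B. They were picked by symbol from 19692 entries of the deposited tables, and all 10 were found. After a filter on low counts, 10038 entries were tested, among them 9 of the 10 genes. TNRC6A did not pass. The libraries came from HEK293 cells, an established human embryonic kidney line. One line overexpressed ZC3H7B and is called ZC3H7B-OE, and the other, the control, carried Flag/HA. Both lines received 100 µM 4-thiouridine and 1 µg/mL doxycycline for 24 h, a wash, and a chase with 10 mM uridine. Cells were collected after 0, 2, 4 and 6 h of chase and poly(A) RNA was sequenced, with 3 libraries per line and time and 24 in all. The labels do not say whether either line is a single clone. In SLAM-seq, 4-thiouridine built into new RNA reads as C instead of T after alkylation, so a read that carries T>C conversions is counted as labelled and taken to stem from RNA made while 4-thiouridine was present.

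MicroRNAs are cut from long primary transcripts in the nucleus by the RNase III enzyme DROSHA with its RNA-binding partner DGCR8, and the hairpin is carried to the cytoplasm by XPO5. DICER1, with the double-stranded RNA-binding proteins TARBP2 and PRKRA, then cuts the hairpin to a short duplex, and an Argonaute protein keeps one strand as a guide. Argonaute recruits a TNRC6 scaffold protein, which brings the CCR4-NOT and PAN2-PAN3 deadenylases to the target mRNA. ZC3H7B is a zinc finger protein that has been described as a binder of certain microRNA precursors. The microRNAs themselves were not measured here.

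Libraries held between 1502068 and 3676254 reads, of which 830574 to 1579744 were labelled. Levels are given as CPM, the count of a gene scaled to a common library size after TMM scaling. Over all times ZC3H7B itself lay between 254 and 463 CPM in ZC3H7B-OE and between 192 and 376 CPM in control, and these ranges overlapped. Compared at the same time, all ZC3H7B-OE libraries lay above all control libraries at 0, 4 and 6 h, and the lines overlapped at 2 h. The 6 h values were 261, 254 and 272 CPM in ZC3H7B-OE and 202, 221 and 209 CPM in control. The log2 fold change of ZC3H7B-OE over control, averaged over the 4 times, was 0.28 for this gene (standard error, SE, 0.08, adjusted p = 0.00347), and 0.19 (adjusted p = 0.0972) with 0 h left out. In a fit of all libraries it was 0.56 at 0 h (adjusted p = 0.00695), and 0.33 (adjusted p = 0.0433) without control replicate 3 at 0 h. Fits of a single time gave 0.57 at 0 h (adjusted p = 0.175), 0.37 at 4 h (adjusted p = 0.00437) and 0.35 at 6 h (adjusted p = 0.00225). The control library of replicate 3 at 0 h stood apart. It had a TMM factor of 0.726, against 0.926 to 1.08 in the others, and a mean correlation with its group of 0.912, against 0.939 to 0.980. Results at 0 h that rest on it are given with and without it. Of the markers of the HEK293 line, 6 of 7 were in the tables. Their summed levels were 825 to 1065 CPM in ZC3H7B-OE and 745 to 1213 CPM in control, nearly all from IGF2BP1, LIN28B and INA. NEFM and PAX2 were near 0, and VIM averaged only 3.97 CPM in ZC3H7B-OE and 3.57 CPM in control. Markers of other cell types were low: endothelial genes had 0 reads, hepatocyte genes 0 reads in ZC3H7B-OE and at most 0.510 CPM in control, and fibroblast genes at most 6.35 CPM in ZC3H7B-OE and 6.12 CPM in control. Leukocyte markers summed to 5.91 to 25.3 CPM in ZC3H7B-OE and 0.917 to 29.01 CPM in control, nearly all from CD74, with PTPRC and CD3E at 0.

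Over the 4 times, the line difference split the partners of DICER1. DICER1, TARBP2 and DGCR8 were higher in ZC3H7B-OE and PRKRA was lower, while DROSHA, XPO5, AGO1, AGO2 and TNRC6B did not pass the threshold of an adjusted p under 0.05. That is 4 of the 9 tested genes, set against 45.8% of all tested entries (20.4% higher and 25.4% lower), so the share called among these genes was near that of the whole table. The genes' median log2 fold change was 0.27, and that of all entries was 0.01. Tests were edgeR quasi-likelihood tests with Benjamini-Hochberg adjustment over all 10038 entries. CPM values are relative to each library's total, and in bulk RNA fewer cells with a transcript and less of it per cell cannot be told apart.

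**Figure D1:**
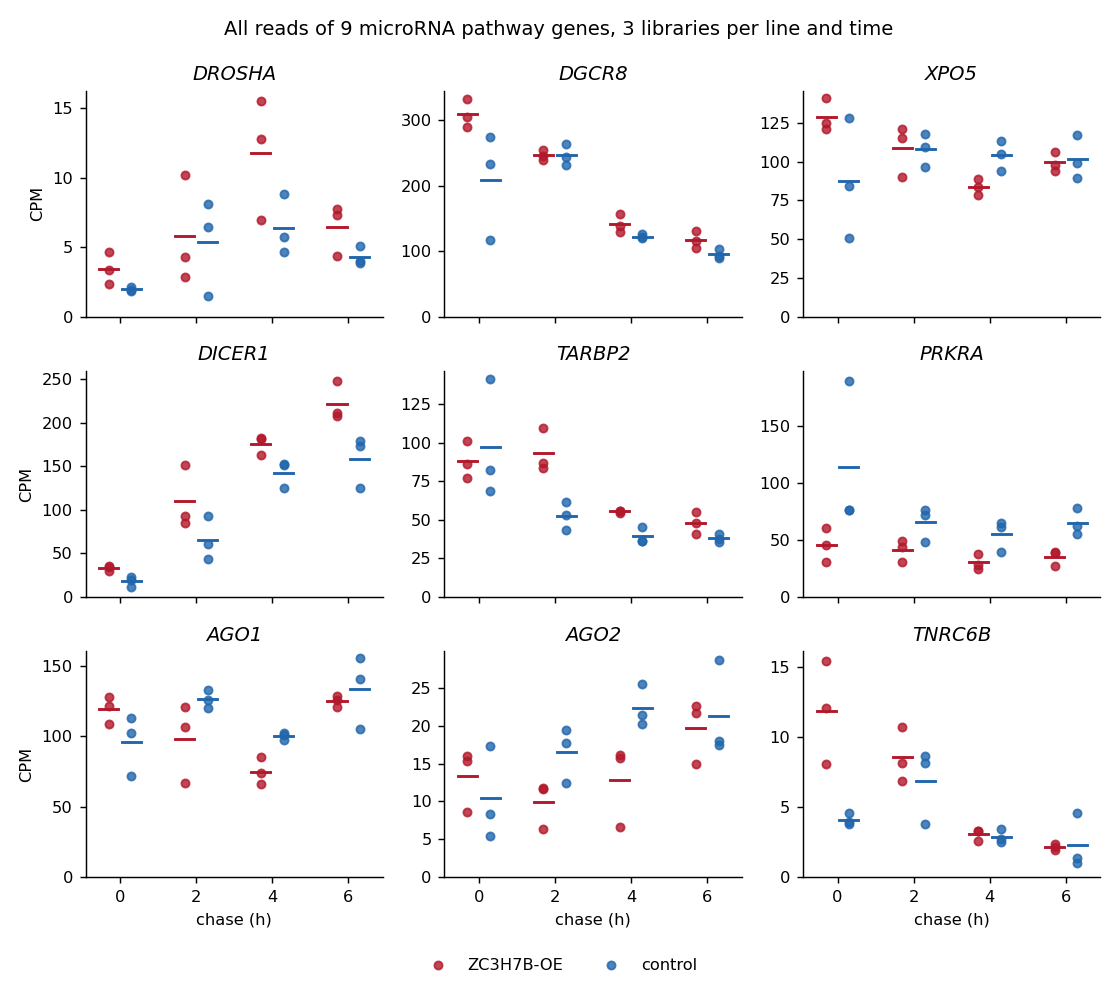
Level of each gene (CPM, linear axis from 0) in every library along the chase (h), with ZC3H7B-OE in red to the left of control in blue; points are libraries and bars are means of 3. DICER1 climbs along the chase in both lines, DGCR8 and TARBP2 decline, and PRKRA lies lower in ZC3H7B-OE. TNRC6A, with 1 read in ZC3H7B-OE and 11 in control, is not drawn.

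DROSHA, the nuclear RNase III enzyme, was sparsely counted. It had 4 to 42 reads per library in ZC3H7B-OE and 2 to 28 in control. Its level averaged 6.86 ± 4.13 CPM in ZC3H7B-OE and 4.51 ± 2.44 CPM in control (SD, n = 12 libraries each). Here and below, an SD over 12 libraries spans the 4 chase times, so it includes change along the chase. The log2 fold change of 0.59 (SE 0.27, adjusted p = 0.0726) was as large as that of DICER1 but had a larger error, and it was not called. Leaving out 1 of 3 libraries brought the adjusted p to between 0.0456 and 0.0498. These were the ZC3H7B-OE libraries of replicate 1 at 2 h and at 4 h, and the control library of replicate 3 at 2 h. DROSHA had no reads without conversions in 2 of 3 ZC3H7B-OE libraries and in all 3 control libraries at 0 h.

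DGCR8, which binds the hairpin base for DROSHA, was the member with the most reads, 5405 in ZC3H7B-OE and 4435 in control. At 0 h it stood at 289.8, 306 and 333 CPM in ZC3H7B-OE, against 233, 275 and 116 CPM in control. At 2 h it was at 239, 255 and 246 CPM in ZC3H7B-OE and 265, 232 and 244 CPM in control, and there the groups overlapped. At 4 h the values were 157, 129.8 and 139 CPM in ZC3H7B-OE, against 119.7, 126 and 121 CPM in control. The 6 h values were 116, 106 and 131 CPM in ZC3H7B-OE and 90.0, 92.5 and 104 CPM in control. All ZC3H7B-OE libraries thus lay above all control libraries at 0, 4 and 6 h, narrowly at the last of these. The share of all entries whose groups lie apart in this way was not counted, so such separation, here and below, is a description. The mean log2 fold change was 0.27 (SE 0.09, adjusted p = 0.0127), and it was 0.17 (adjusted p = 0.198) with 0 h left out of the mean. At 0 h alone it was 0.56 (SE 0.17, adjusted p = 0.0144), and 0.28 (adjusted p = 0.111) without control replicate 3. Leaving out ZC3H7B-OE replicate 3 also ended that call (0.50, adjusted p = 0.0635), as did a fit of that time alone (0.57, adjusted p = 0.228). At 6 h the value was 0.30 (adjusted p = 0.262), and a fit of that time alone called it (0.33, adjusted p = 0.0256).

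The DGCR8 transcript holds microRNA hairpins of its own in an annotated exon, and these are known substrates of the DROSHA-DGCR8 complex. The mature microRNAs of both are shown because they mark where the complex can cut the mRNA that encodes its own subunit. Both lie on the plus strand, at chr22:20085797-20085818 and chr22:20086112-20086129 (RefSeq, GRCh38.p14), and capitals mark the seed, bases 2 to 8.
hsa-miR-3618: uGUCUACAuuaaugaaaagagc
hsa-miR-1306-3p: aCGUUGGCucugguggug

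A larger share of DGCR8 reads was labelled at 6 h in ZC3H7B-OE than in control. The share depends on unlabelled reads too and does not measure how long label lasts. Labelled DGCR8 reads declined by 0.33 log2 units per h in ZC3H7B-OE and by 0.40 in control, steeper than the medians of all entries, -0.24 in ZC3H7B-OE and -0.26 in control. The slopes were not called different between the lines (0.07, SE 0.07, adjusted p = 0.992), and were from 2 h on (0.21, adjusted p = 0.0388). At 6 h, 57.6%, 62.6% and 70.8% of DGCR8 reads were labelled in ZC3H7B-OE, against 53.0%, 37.0% and 46.6% in control. The 3 ZC3H7B-OE libraries lay above the 3 control libraries. The log2 odds of a read being labelled differed by 1.07 (SE 0.24, adjusted p = 0.00174), and across the leave-one-out and other fits the value stayed between 0.83 and 1.27 with adjusted p-values up to 0.0415. DGCR8 was the only 1 of 7 tested members called at 6 h, where 9.25% of 7134 entries were called. Pooled over libraries, its share was above that of 95.8% of entries with at least 100 reads in ZC3H7B-OE and of 84.7% in control, where the medians of all such entries were 25.5% and 27.4%. Labelled DGCR8 reads stood at 66.6, 66.0 and 93.1 CPM in ZC3H7B-OE, against 47.7, 34.2 and 48.2 CPM in control, and unlabelled reads at 49.0, 39.5 and 38.3 CPM in ZC3H7B-OE, against 42.3, 58.3 and 55.3 CPM in control. Labelled groups were apart and unlabelled groups overlapped by a single pair of libraries. At 0 h the shares had been 85.7%, 89.3% and 86.8% in ZC3H7B-OE and 89.7%, 90.2% and 93.7% in control. Averaged over the 4 times, 0 of 7 tested members were called for labelled against unlabelled reads (edgeR, 0 at an unadjusted p under 0.05), where 14.8% of entries were.

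**Figure D2:**
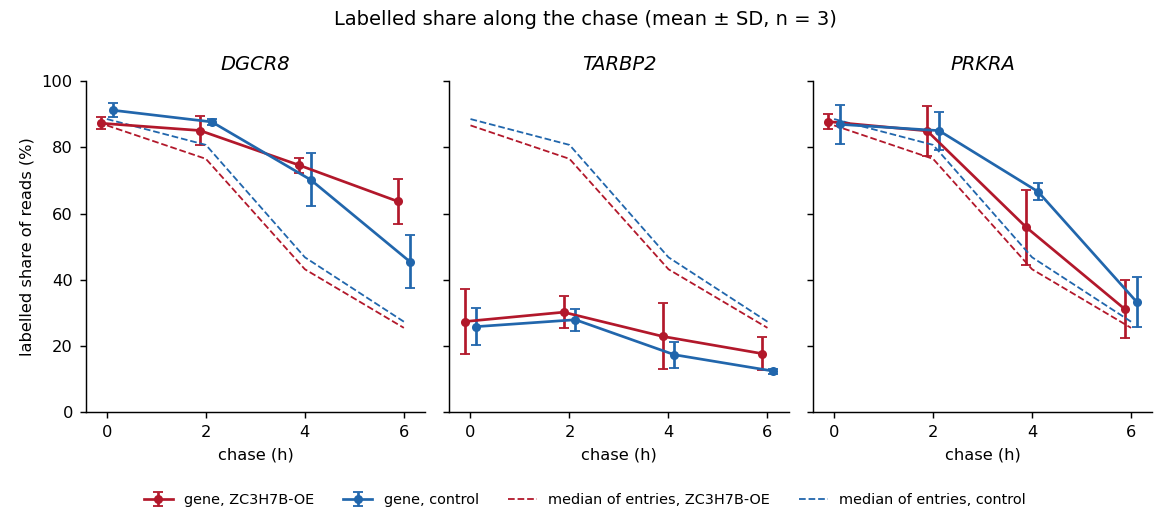
Labelled share of reads (%) along the chase (h) for DGCR8, TARBP2 and PRKRA; solid lines are means ± SD of 3 libraries, red for ZC3H7B-OE and blue for control, and dashed lines are the medians over entries with at least 100 pooled reads. DGCR8 has the highest labelled share of the 3 genes at 6 h, 63.7% in ZC3H7B-OE and 45.5% in control, while TARBP2 starts at 27.4% in ZC3H7B-OE and 25.9% in control.

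XPO5, the exporter of precursor hairpins, did not differ over the chase as a whole (log2 0.05, SE 0.10, adjusted p = 0.704). At 0 h it was at 121, 125 and 141 CPM in ZC3H7B-OE, against 84.2, 128 and 50.4 CPM in control, a called difference of 0.53 (SE 0.20, adjusted p = 0.0394). The lowest value was that of control replicate 3, and without this library the difference was 0.28 (adjusted p = 0.244). Leaving out control replicate 2 gave 0.90 and kept the call, while 15 other single libraries ended it, as did a fit of that time alone (0.55, adjusted p = 0.258). At 4 h XPO5 stood at 83.5, 88.8 and 78.7 CPM in ZC3H7B-OE, against 105, 113 and 93.9 CPM in control. There all ZC3H7B-OE libraries lay below all control libraries, without a call (-0.31, adjusted p = 0.274), and at 0, 2 and 6 h the groups overlapped.

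DICER1 rose strongly along the chase in both lines and was higher in ZC3H7B-OE. The ZC3H7B-OE libraries held 34.9, 29.5 and 35.2 CPM at 0 h, 84.4, 93.1 and 152 CPM at 2 h, 163, 182 and 181 CPM at 4 h, and 247, 211 and 207 CPM at 6 h. Control libraries held 23.0, 19.0 and 11.9 CPM at 0 h, 60.6, 43.6 and 93.1 CPM at 2 h, 152, 151 and 125 CPM at 4 h, and 124, 174 and 179 CPM at 6 h. Every ZC3H7B-OE library exceeded every control library at 0, 4 and 6 h, and the lines overlapped at 2 h. The log2 fold change between the lines was 0.59 (SE 0.12, adjusted p = 0.000106) and it was called under each alternative tried (0.50 to 0.68). At single times the fit of all libraries called it at 0 h (0.82, SE 0.28, adjusted p = 0.0242) and at 2 h (0.74, SE 0.22, adjusted p = 0.0309). It did not call 4 h (0.30, adjusted p = 0.347) or 6 h (0.48, adjusted p = 0.108). The call at 0 h was lost without ZC3H7B-OE replicate 1, ZC3H7B-OE replicate 3 or control replicate 3 (0.65 to 0.79), with limma-voom (adjusted p = 0.0874) and in a fit of that time alone (adjusted p = 0.0989). At 2 h the call was lost without ZC3H7B-OE replicate 3 (0.43), control replicate 1 (0.70) or control replicate 2 (0.51), and in a fit of that time alone (0.73, adjusted p = 0.147). Fits of a single time did call DICER1 at 4 h (0.32, adjusted p = 0.0287) and at 6 h (0.51, adjusted p = 0.00296). The 6 h difference was also called with limma-voom (adjusted p = 0.0333) and with no filter on low counts (adjusted p = 0.0438). The difference between the lines was not shown to change along the chase (adjusted p of the interaction 0.618).

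**Figure D3:**
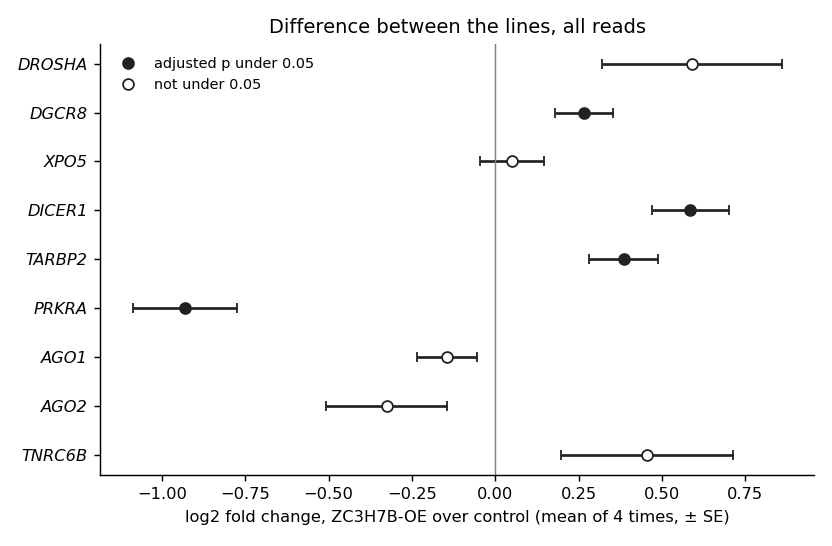
Log2 fold change of ZC3H7B-OE over control (mean of the 4 chase times, ± SE, x axis) for the 9 tested genes, listed by their place in the pathway; filled points have an adjusted p under 0.05. DGCR8, DICER1 and TARBP2 lie to the right of 0 and PRKRA to the left at -0.93.

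From 0 to 6 h, DICER1 gained 2.74 log2 units in ZC3H7B-OE (SE 0.24, adjusted p = 1.34e-11) and 3.09 in control (SE 0.25, adjusted p = 7.84e-12), 6.69-fold and 8.49-fold. Changes along the chase were common in these libraries, and 63.4% of entries were called in ZC3H7B-OE (32.8% higher and 30.6% lower) and 60.6% in control (30.7% higher and 29.9% lower). Within that background DICER1 ranked 656 of 10038 from the highest in ZC3H7B-OE and 296 in control. In ZC3H7B-OE, 4 of the 9 members were called along the chase, with DICER1 higher and TARBP2, DGCR8 and TNRC6B lower. Control had 6, with DICER1, AGO1 and AGO2 higher and TARBP2, PRKRA and DGCR8 lower.

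Most of this rise from 0 to 6 h was in unlabelled reads. Labelled reads averaged 32.1 CPM at 0 h and 44.6 CPM at 6 h in ZC3H7B-OE, and 15.8 CPM at 0 h and 33.9 CPM at 6 h in control. ZC3H7B-OE replicate 3 at 6 h, at 31.8 labelled CPM, lay within the range of ZC3H7B-OE at 0 h. Unlabelled DICER1 reads stood at 0.591, 0.483 and 2.31 CPM at 0 h and 194, 162 and 176 CPM at 6 h in ZC3H7B-OE, against 0.979, 3.79 and 1.83 CPM at 0 h and 97.4, 134 and 144 CPM at 6 h in control. Labelled reads stood at 34.3, 28.98 and 32.9 CPM at 0 h and 63.7, 74.9 and 114 CPM at 2 h in ZC3H7B-OE. In control they stood at 22.0, 15.2 and 10.1 CPM at 0 h and 49.9, 35.5 and 66.7 CPM at 2 h. Labelled DICER1 reads at 2 h were thus above those at 0 h in every library of both lines, a comparison made without a test. Over all genes the labelled share was 74.3% to 75.1% at 0 h and 70.8% to 72.4% at 2 h in ZC3H7B-OE, and 74.8% to 78.0% at 0 h and 73.7% to 77.2% at 2 h in control. Whether label was still built in after the chase began was not tested. CPM are shares of a library, and the labels name no spike-in, so amounts per cell cannot be told apart from a shift in the rest of the library. At 0 h the DICER1 counts were small, 59 to 61 reads per library in ZC3H7B-OE and 13 to 47 in control.

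**Figure D4:**
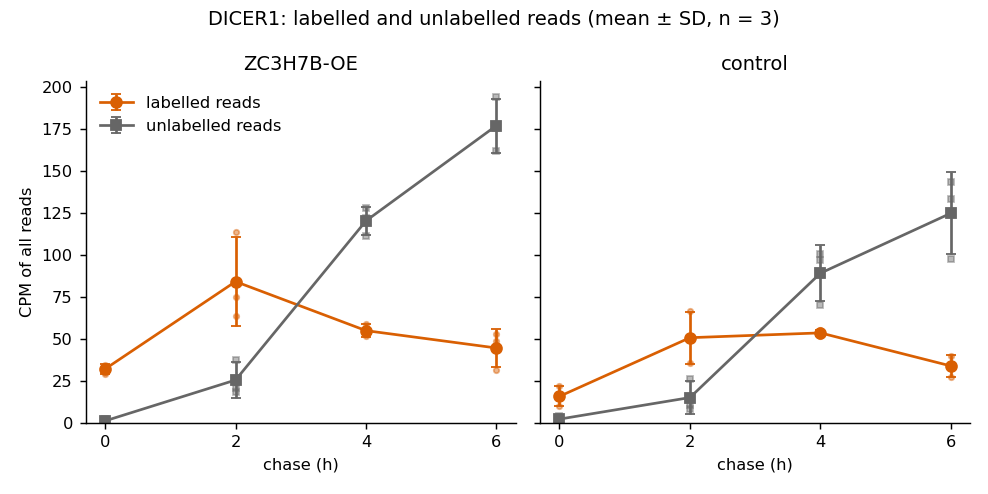
Labelled (orange circles) and unlabelled (grey squares) DICER1 reads along the chase (h), in CPM of all reads, for ZC3H7B-OE on the left and control on the right; lines join means ± SD of 3 libraries and small symbols are libraries. Unlabelled reads reach 177 CPM in ZC3H7B-OE and 125 CPM in control at 6 h, and labelled reads are higher at 2 h than at 0 h in both lines.

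The labelled share of DICER1 reads at 6 h was 21.5%, 23.2% and 15.3% in ZC3H7B-OE and 21.7%, 22.9% and 19.5% in control, and the lines overlapped. The log2 odds at 6 h differed by -0.11 with a 95% interval of -0.58 to 0.36, and no difference was called. A slope fitted to labelled DICER1 reads over 0 to 6 h was 0.01 log2 units per h in ZC3H7B-OE (SE 0.08) and 0.13 in control (SE 0.09), neither of them called. Fitted from 2 h on, the slopes were -0.24 in ZC3H7B-OE (adjusted p = 4.36e-05) and -0.16 in control (adjusted p = 0.00927), so a single rate does not describe DICER1 over the whole chase and no half-life is given.

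DICER1 is a known target of miR-103 and miR-107, which share a seed. miR-103a lies in introns of PANK3 and PANK2, and miR-107 in an intron of PANK1. They are shown because DICER1 and their host genes were all measured here. The PANK3 copy of miR-103a-3p lies at chr5:168560904-168560926 and miR-107 at chr10:89592756-89592778, both on the minus strand (RefSeq, GRCh38.p14), with the seed, bases 2 to 8, in capitals.
hsa-miR-103a-3p: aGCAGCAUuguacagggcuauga
hsa-miR-107: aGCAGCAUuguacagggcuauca

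The 3' UTR of the DICER1 transcript ENST00000343455.7, 4270 bases long, held 5 copies of ATGCTGC, the DNA reverse complement of that seed, searched on the transcript's strand. Of the 1494 genes with a 3' UTR at least as long, DICER1 among them, 26.9% held at least 1 copy in their first 4270 bases. How many held 5 copies was not counted. The sites are given 5' to 3' on the minus strand of chromosome 14 (GENCODE v29, GRCh38), with the motif in capitals, and a match is no evidence of binding in these cells.
DICER1 site at chr14:95089455-95089479: tatcacacctaaaatATGCTGCaga
DICER1 site at chr14:95088854-95088878: ttgatgcttcgtggaATGCTGCatt
DICER1 site at chr14:95087650-95087674: tccgcagtcctaactATGCTGCgtt
DICER1 site at chr14:95086379-95086403: aatatttaccatcacATGCTGCagc
DICER1 site at chr14:95086327-95086351: attcatacagtaatcATGCTGCaga

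Of the host genes of these microRNAs, PANK3, a pantothenate kinase, was lower in ZC3H7B-OE (log2 -0.57, SE 0.09, adjusted p = 2.39e-06), at 564 ± 357 CPM against 772 ± 401 CPM in control (SD, n = 12). PANK1 (-0.15, SE 0.11, adjusted p = 0.307) and PANK2 (0.11, SE 0.18, adjusted p = 0.661) were not called. All 3 host genes rose from 0 to 6 h, PANK3 by 2.91 in ZC3H7B-OE and 2.12 in control, PANK1 by 2.71 in ZC3H7B-OE and 2.78 in control, and PANK2 by 0.97 in ZC3H7B-OE and 1.47 in control. Levels of a host mRNA do not measure its microRNA. Of 4743 genes with a mean of at least 32 CPM, those whose log2 level ran most like that of DICER1 over the 24 libraries were ASH1L (Pearson's r 0.981), RICTOR (0.978) and OTUD3 (0.978). The libraries share chase times, and these values carry no test.

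TARBP2, the double-stranded RNA-binding partner that steadies DICER1, was higher in ZC3H7B-OE from 2 h on. At 0 h it was at 77.5, 101 and 86.1 CPM in ZC3H7B-OE and 68.6, 82.4 and 141 CPM in control. At 2 h the values were 86.7, 109.7 and 83.9 CPM in ZC3H7B-OE, against 53.0, 61.9 and 43.6 CPM in control. Later values were 56.1, 54.4 and 56.1 CPM in ZC3H7B-OE against 36.4, 45.6 and 36.1 CPM in control at 4 h, and 40.7, 55.0 and 47.8 CPM in ZC3H7B-OE against 40.6, 37.7 and 35.6 CPM in control at 6 h. The lines overlapped at 0 h and were apart at 2, 4 and 6 h, at 6 h barely. The mean log2 fold change was 0.38 (SE 0.10, adjusted p = 0.00279), and 0.24 (adjusted p = 0.104) with 2 h left out of the mean. Of the single times, the fit of all libraries called only 2 h (0.82, SE 0.21, adjusted p = 0.00878). That call was lost without ZC3H7B-OE replicate 2 (0.69, adjusted p = 0.0829) or control replicate 3 (0.70, adjusted p = 0.0616). At 4 h the value was 0.50 (adjusted p = 0.0980). It was called there without control replicate 3 at 0 h (adjusted p = 0.0243) and in a fit of that time alone (0.52, adjusted p = 0.0167). Along the chase TARBP2 fell by 0.88 log2 units in ZC3H7B-OE (SE 0.21) and by 1.33 in control (SE 0.21).

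Most TARBP2 reads carried no conversion even at the end of the pulse. At 0 h, 33.6%, 32.5% and 16.1% were labelled in ZC3H7B-OE and 28.6%, 29.6% and 19.5% in control. Pooled over libraries, 4.31% of entries with at least 100 reads had a lower share in ZC3H7B-OE and 3.59% in control, where the medians were 86.6% and 88.5%. At 6 h the shares were 12.4%, 22.6% and 18.3% in ZC3H7B-OE and 13.3%, 12.0% and 12.0% in control, overlapping between the lines and, in control, all below the 0 h shares. A labelled read needs a T in the counted stretch, and the T content of that stretch is not known here. The annotation places an antisense gene, AC023509.4, over TARBP2, and the use of strand in counting is not stated. Their part in the low share was not tested.

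PRKRA, the other double-stranded RNA-binding partner of DICER1 and an activator of the kinase PKR, was the only member called lower. The ZC3H7B-OE libraries were at 60.9, 45.4 and 30.6 CPM at 0 h, 48.8, 30.5 and 43.7 CPM at 2 h, 24.8, 38.1 and 28.1 CPM at 4 h, and 27.3, 38.9 and 39.4 CPM at 6 h. The control libraries were at 75.9, 76.4 and 189.8 CPM at 0 h, 75.9, 72.2 and 48.4 CPM at 2 h, 61.3, 39.5 and 65.0 CPM at 4 h, and 77.8, 62.5 and 55.0 CPM at 6 h. The groups did not overlap at 0, 4 and 6 h, and at 2 h a single ZC3H7B-OE library, at 48.8 CPM, lay just above the lowest control library. The mean log2 fold change was -0.93 (SE 0.16, adjusted p = 2.72e-05), which is 0.525 times the control level, and it stayed called in every alternative, between -1.01 and -0.80. The 0 h difference of -1.29 (SE 0.32, adjusted p = 0.00297) included the control library at 189.8 CPM, and was -0.74 (adjusted p = 0.0208) without it. A fit of that time alone did not call it (-1.26, adjusted p = 0.0698). At 2 h the value was -0.68 (adjusted p = 0.218). A fit of that time alone called it (adjusted p = 0.0296), as did the fit without control replicate 3 at 0 h. At 4 h it was -0.87 (adjusted p = 0.0558), called in 5 of 24 fits without a library and 4 of 6 other fits. At 6 h the value was -0.89 (SE 0.31, adjusted p = 0.0494), so near the threshold that 19 of 24 single libraries, left out, ended the call. Of 6 other fits at 6 h, 2 ended it, and adjusted p over these alternatives ran from 0.000105 to 0.201.

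The labelled share of PRKRA reads was not called different between the lines at any time. At 4 h it was 62.7%, 62.1% and 42.9% in ZC3H7B-OE, against 67.7%, 63.7% and 68.4% in control, all ZC3H7B-OE libraries below all control libraries (log2 odds -0.65, SE 0.40, adjusted p = 0.409). The lines overlapped at 6 h, where it was 39.1%, 21.7% and 32.4% in ZC3H7B-OE and 41.3%, 26.3% and 32.1% in control, and the difference in log2 odds was -0.19 with a 95% interval of -0.93 to 0.55. Slopes of labelled PRKRA reads were -0.34 log2 units per h in ZC3H7B-OE (SE 0.06) and -0.35 in control (SE 0.05). Their difference of 0.01 per h was not called. Both labelled and unlabelled PRKRA reads were lower in all ZC3H7B-OE libraries than in all control libraries at 6 h, at 10.7, 8.46 and 12.8 labelled CPM in ZC3H7B-OE against 32.1, 16.4 and 17.7 CPM in control, and 16.6, 30.5 and 26.7 unlabelled CPM in ZC3H7B-OE against 45.7, 46.1 and 37.4 CPM in control. In control PRKRA fell by 0.78 log2 units between 0 and 6 h (SE 0.30, adjusted p = 0.0283), a call lost without control replicate 3 at 0 h (-0.21, adjusted p = 0.431), control replicate 2 at 6 h (-0.81, adjusted p = 0.0573) or control replicate 3 at 6 h (-0.66, adjusted p = 0.104), and with limma-voom (-0.60, adjusted p = 0.0585). The genes that ran most like PRKRA were RAB11A (Pearson's r 0.916), CFL2 (0.915) and ARL1 (0.914). PJVK lies over PRKRA on the opposite strand, as TRMT2A does over DGCR8, POLR1C over XPO5 and DICER1-AS1 over DICER1, and reads of such pairs may not be separable.

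The Argonautes, which hold the guide strand, were not called between the lines. AGO1 averaged 104 ± 24.6 CPM in ZC3H7B-OE and 114 ± 22.6 CPM in control (SD over the 4 chase times, n = 12), a log2 fold change of -0.14 (SE 0.09, adjusted p = 0.198). AGO2, the Argonaute that can itself slice a target, averaged 14.0 ± 5.21 CPM in ZC3H7B-OE and 17.6 ± 6.52 CPM in control, a log2 fold change of -0.33 (SE 0.18, adjusted p = 0.141). Both were called lower with the control library of replicate 3 at 0 h left out (AGO1 -0.19, adjusted p = 0.0392, and AGO2 -0.39, adjusted p = 0.0493), and with 0 h left out of the mean (AGO1 -0.29, adjusted p = 0.0269, and AGO2 -0.54, adjusted p = 0.0354). The AGO1 values at 4 h were 85.5, 73.6 and 66.0 CPM in ZC3H7B-OE, against 102, 101 and 97.3 CPM in control. AGO2 at that time had 16.2, 6.66 and 15.7 CPM in ZC3H7B-OE, against 21.4, 25.5 and 20.2 CPM in control. The lines were apart at 4 h for both genes and overlapped at 6 h. AGO2 was also apart at 2 h.

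Along the chase in control, AGO1 rose by 0.47 log2 units (SE 0.18, adjusted p = 0.0268) and AGO2 by 0.97 (SE 0.37, adjusted p = 0.0221). In ZC3H7B-OE the values were 0.07 for AGO1 (SE 0.18, adjusted p = 0.753) and 0.57 for AGO2 (SE 0.35, adjusted p = 0.159), and the interaction of line and time was called for neither (adjusted p = 0.242 and 0.401). The AGO1 call in control was lost in 8 of the 24 fits that left out 1 library. Its lowest value, 0.29, came without control replicate 2 at 6 h. The AGO2 call was lost without control replicate 1 at 0 h (0.81), control replicate 3 at 0 h (0.75) or control replicate 2 at 6 h (0.65), and the value was 1.57 without control replicate 2 at 0 h.

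TNRC6B, a scaffold that links Argonaute to the deadenylases, was scarce but stood high at 0 h in ZC3H7B-OE. It had 6 to 26 reads per library in ZC3H7B-OE and 3 to 16 in control. At 0 h the levels were 15.4, 12.1 and 8.09 CPM in ZC3H7B-OE, against 3.92, 3.79 and 4.59 CPM in control. At 6 h they were 2.38, 1.97 and 2.19 CPM in ZC3H7B-OE and 1.01, 1.40 and 4.56 CPM in control. The lines were apart at 0 h (log2 1.54, SE 0.50, adjusted p = 0.0183) and overlapped at 6 h. The 0 h call was lost without ZC3H7B-OE replicate 1 (1.32, adjusted p = 0.0827) and in a fit of that time alone (1.55, adjusted p = 0.0529). Over all times the value was 0.45 (SE 0.26, adjusted p = 0.151). TNRC6B fell by 2.41 log2 units along the chase in ZC3H7B-OE (SE 0.49, adjusted p = 8.02e-05), rank 59 of 10038 from the lowest. In control the value was -0.74 (SE 0.55, adjusted p = 0.248), and -1.70 (adjusted p = 0.0234) without replicate 3 at 6 h. The interaction was not called for TNRC6B (adjusted p = 0.385).

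TNRC6A, its paralogue, had 1 read in all ZC3H7B-OE libraries together and 11 in control, 6 of them in replicate 1 at 2 h, so no fold is given. A count near 0 is no measure of absence in these tables. PABPC1, the main cytoplasmic poly(A)-binding protein, averaged only 0.337 CPM in ZC3H7B-OE and 0.322 CPM in control. The remaining paralogue, TNRC6C, was called higher in ZC3H7B-OE (log2 0.38, SE 0.14, adjusted p = 0.0214).

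At single times, 5 of 9 members were called at 0 h, where 31.2% of entries were: DICER1, DGCR8, TNRC6B and XPO5 higher and PRKRA lower. At 2 h TARBP2 and DICER1 were called, 2 of 9, against 9.46% of entries. At 4 h the edgeR fit of all libraries called 0 members (4 had an unadjusted p under 0.05), against 17.7% of entries. That count depended on the fit. In a fit of that time alone, edgeR called 5 of 8 tested members (2 higher and 3 lower). It called 4 without control replicate 3 at 0 h and 1 with no filter, while DESeq2 called 1 and limma-voom 2. The share of all entries called was not taken for these other fits, so 17.7% is not their background. At 6 h the fit of all libraries called PRKRA alone, against 15.8% of entries. No member was called for a line difference that changed along the chase, where 1.73% of entries were, and 3 members had an unadjusted p under 0.05.

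Labelled reads of most members declined relative to all reads. Slopes over 0 to 6 h were called negative for 7 of 9 members in ZC3H7B-OE, where 72.3% of 8763 entries were, and for 6 of 9 in control, where 75.5% were. The steepest was TNRC6B, at -0.66 log2 units per h in ZC3H7B-OE (SE 0.12) and -0.44 in control (SE 0.13). The called slopes of DGCR8, TARBP2, PRKRA, XPO5 and AGO1 lay between -0.34 and -0.27 in ZC3H7B-OE and between -0.40 and -0.20 in control. From 2 h on, slopes moved by over 1.5 times for TARBP2 in ZC3H7B-OE (-0.43) and, in control, for AGO1 (-0.36), XPO5 (-0.39) and TNRC6B (-0.67). DROSHA and DICER1 were called in neither line, although from 2 h on DROSHA was called in control (-0.52, adjusted p = 0.0069). AGO2 was called in ZC3H7B-OE (-0.16, SE 0.07, adjusted p = 0.0442), a call lost in 6 fits without a single library and in all 4 other alternatives, and not in control (-0.10, adjusted p = 0.236). From 2 h on it was the reverse, not called in ZC3H7B-OE (-0.12, adjusted p = 0.284) and called in control (-0.26, adjusted p = 0.0116), and the difference between the lines was not called. Slopes differed between the lines for 0% of entries, 0 of 8763 (edgeR, 481 at an unadjusted p under 0.05, none of them a member). Summed over the members, the labelled share was 81.2% ± 2.26, 75.0% ± 1.75, 49.6% ± 3.92 and 32.5% ± 1.08 (SD, n = 3) at 0, 2, 4 and 6 h in ZC3H7B-OE, and 78.8% ± 6.65, 80.4% ± 2.72, 52.7% ± 5.45 and 29.9% ± 2.71 in control, which is a description.

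The wider pathway was read from 4 lists of genes. Of 27 further processing cofactors, 23 were tested, with 5 higher and 8 lower in ZC3H7B-OE and a median log2 fold change of -0.10. Over all entries 20.4% were higher and 25.4% lower, 45.8% in all, and the counts of this list and of the Argonaute partners are to be read against those shares. LIN28B, which blocks let-7 maturation, was lowest in adjusted p (log2 -0.89, SE 0.07, adjusted p = 1.32e-11), and TSN, a subunit of the translin nuclease, was also lower (-0.43, SE 0.08). KHSRP, a loop-binding helper of processing, was higher by 0.49 (SE 0.07), and the RNA editor ADAR by 0.38 (SE 0.07). Argonaute partners and silencing factors, 23 tested of 29, had 2 higher and 7 lower and a median of -0.001. Among these AJUBA, a LIM protein that binds Argonaute, changed by -1.06 (SE 0.10), the HSP90 co-chaperone FKBP5 by -0.76 (SE 0.09), the import factor IPO8 by -0.71 (SE 0.11) and the chaperone DNAJA2 by -0.37 (SE 0.08). That count was 5, all lower, with 0 h left out of the mean.

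The deadenylases that TNRC6 proteins recruit were also listed. Of 12 CCR4-NOT and PAN2-PAN3 genes 9 were tested, with 1 higher and 5 lower and a median of -0.40, against 20.4% higher, 25.4% lower and a median of 0.01 over all entries. The catalytic subunits CNOT6 (-0.41, SE 0.07), CNOT7 (-0.44, SE 0.08) and CNOT6L (-0.55, SE 0.10) were lower, as was the subunit CNOT10 (-0.52, SE 0.14). This list was chosen with results of these data known, so its median is a description.

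Host genes of intronic microRNAs, 20 tested of 27 named, had 4 higher and 4 lower and a median of 0.08, with 45.8% of all entries called. The 4 with the smallest adjusted p were lower: SKA2, a spindle and kinetochore gene (-0.93, SE 0.08), ZRANB2, a splicing factor (-0.99, SE 0.10), SMC4, a condensin subunit (-0.89, SE 0.12), and PANK3. SKA2 and SMC4 each carry a pair of microRNAs with a common seed, shown here because both hosts were called, although no microRNA was measured. The SKA2 pair lies at chr17:59151149-59151171 and chr17:59137787-59137809 on the minus strand, and the SMC4 pair at chr3:160404607-160404628 and chr3:160404754-160404775 on the plus strand (RefSeq, GRCh38.p14). Capitals again mark bases 2 to 8.
hsa-miR-301a-3p, SKA2: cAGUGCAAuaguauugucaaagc
hsa-miR-454-3p, SKA2: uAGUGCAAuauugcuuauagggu
hsa-miR-15b-5p, SMC4: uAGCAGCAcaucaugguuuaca
hsa-miR-16-5p, SMC4: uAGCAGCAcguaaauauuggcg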

How the data were processed

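The authors deposited read counts per gene in 2 tables, all reads and reads with T>C conversions, for 24 libraries. Per the submitters' processing notes, fastp was used and the build was GRCh37. The sources used here do not name the aligner, the conversion caller, the counted window or the use of strand. Counts were used as deposited. Of the entries, 450 name several genes with 2.30% to 3.69% of the reads per library, and they stayed in library sizes and tests.

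All reads were fitted with edgeR 4.0.16 in R 4.3.3 (robust quasi-likelihood, TMM, filterByExpr with a minimum count of 10, a mean per group). Labelled and unlabelled reads were compared within libraries over 7134 entries with at least 10 reads of each kind per group in 6 of 8 groups, with no correction for the library-wide share, whose median shift was -0.13 log2 odds for the mean of 4 times. Slopes of labelled reads used the library sizes of all reads. P-values carry a Benjamini-Hochberg adjustment, SE is the size of the log2 value over the root of F, and intervals are at 95%. Scripts were tested on simulated data. DESeq2 1.42.0 and limma 3.58.1 were alternatives.

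The 10 genes, the lists and the tests were chosen with earlier results of these data known. All 10 genes are named, then up to 4 called genes per list, by smallest adjusted p, and the 3 genes nearest in pattern to DICER1 and PRKRA. TNRC6C, PANK1, PANK2 and PABPC1, and those in the closing section, were named after their values were seen. The markers NEFL and PECAM1 and the hosts DLEU2 and MIR17HG were not analysed here. Nothing in the labels says that replicates are separate cultures. The p-values therefore reflect just the spread among these libraries, and that spread may be technical. No 2 replicates were duplicates (chi-square per degree of freedom 2.32 to 34.8). Depth limits members with few reads, and counting error alone is wide there.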

Additional observations from a re-analysis of the deposited data

How the results depend on the processing

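The numbers of members called were 4 between the lines over all times, with 4 to 6 when each library was left out in turn and 3 to 5 when a time was. At 0 h the 5 members became 2 to 5 without a library and 0 in a fit of that time alone. At 2 h the 2 members, both higher, became 1 to 3 without a library. A fit of that time alone also called 2, but 1 higher and 1 lower, with DICER1 lost and PRKRA called lower. At 4 h the 0 members became 0 to 4 without a library, 1 with no filter on low counts, 1 with DESeq2, 2 with limma-voom and 5 in a fit of that time alone. At 6 h the 1 member became 0 to 1 without a library, 0 with a replicate block, 0 with DESeq2's size factors in edgeR, 2 with no filter, 2 with limma-voom and 3 in a fit of that time alone. The chase gave 4 to 5 in ZC3H7B-OE and 3 to 7 in control, the interaction 0 to 1, and slopes 6 to 7 in ZC3H7B-OE and 6 in control, or 9 in control from 2 h on. The slope difference was called for 1 member, DGCR8 (0.21, adjusted p = 0.0388), from 2 h on. The cause was not tested. For the alternatives in this section the share of all entries called was not taken, so these counts have no background beside them. Same-numbered replicates did not deviate together (12 pairs, r -0.29 to 0.45, 1 above 0.1, 3 of the 12 ZC3H7B-OE libraries nearest the control of their own number), and in no other comparison did the replicate block change a count of members by over 1.5 times (4 with the block over all times). XPO5 over all times ranged from -0.0149 (without control replicate 3 at 0 h) to 0.14 without a library and was -0.11 with 0 h left out, and its chase value in control ranged from -0.0404 (without that library) to 0.58. The DICER1 slope in ZC3H7B-OE ranged from -0.0381 to 0.0594 without a library, and was below 0 without any 1 of the 3 ZC3H7B-OE libraries at 0 h. The members' summed labelled share differed by 2.36 points at 0 h (-1.43 to 4.76 without a library) and by -3.10 at 4 h (-4.79 to 0.0498), and as the mean of the members' own shares by -0.0199 and 2.07. At 2 h it differed by -5.38 (-6.94 to -4.49) and at 6 h by 2.63 (1.38 to 4.06). The DICER1 slope from 2 h on was -0.24 in ZC3H7B-OE and -0.16 in control.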

Other observations

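Several effectors of silencing rose along the chase as DICER1 did, while others fell or were not called. Of 9 tested CCR4-NOT and PAN2-PAN3 genes, 5 were higher at 6 h than at 0 h in ZC3H7B-OE and 6 in control, and none was lower, while 32.8% of all entries were higher and 30.6% lower in ZC3H7B-OE, and 30.7% higher and 29.9% lower in control. CNOT6L, a catalytic deadenylase, rose by 3.83 log2 units in ZC3H7B-OE and 3.04 in control, and PAN3, the adaptor of PAN2, by 2.87 in ZC3H7B-OE and 3.04 in control. The helicase DDX6, which represses translation with TNRC6 partners, rose by 2.21 in ZC3H7B-OE and 1.78 in control. CNOT3, CNOT10 and PAN2 were called in neither line. EIF4E2 changed by -1.25 in ZC3H7B-OE and -1.73 in control. MOV10 changed by -1.27 in ZC3H7B-OE and, without a call, by -0.29 in control.

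Further Argonaute partners, 23 of them tested, split, with 11 higher and 6 lower in ZC3H7B-OE and 12 higher and 4 lower in control. IPO8 rose by 2.47 in ZC3H7B-OE and 2.10 in control, and AJUBA fell by 0.99 in ZC3H7B-OE and by 1.37 in control. Processing cofactors, 23 tested, had 9 higher and 3 lower in ZC3H7B-OE and 9 higher and 6 lower in control. The shares over all entries were 32.8% higher and 30.6% lower in ZC3H7B-OE, and 30.7% higher and 29.9% lower in control. Among the cofactors SAFB, a nuclear scaffold protein, rose by 4.10 in ZC3H7B-OE and 4.99 in control. The lists were chosen with results of these data known, and the counts are descriptions.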
